A study of Rattus norvegicus with 24 samples.

Results

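The transcripts of 6 amino acid transporter genes, Slc7a5, Slc3a2, Slc38a2, Slc7a1, Slc1a5 and Slc38a1, were followed in rat tibialis anterior muscle over 30 days of resistance training. They were taken by gene symbol from a table of transcript values and the transcripts of each symbol were summed, which gave 6 of 15273 genes and 9 of 20027 transcripts. Male Wistar rats carried an implanted pulse generator that loaded the left tibialis anterior once a day (SpillOver training) for 2, 10, 20 or 30 days, and both muscles were removed 1 h after the last bout. The trained left muscle and the unstimulated right muscle of each of 12 rats were sequenced, 3 rats per time point, which makes 24 libraries in 8 groups of 3. The unstimulated muscles came from animals that carried the same implant and were trained in the other leg, so they are contralateral muscles and not muscles of untrained rats. The series' own design text speaks of 4 animals per time point.

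Amino acid transporters of the plasma membrane set the supply of amino acids for protein synthesis and for the kinase complex mTORC1, which responds to leucine, arginine and glutamine. Slc7a5 is the light chain of an exchanger that brings in large neutral amino acids such as leucine, and Slc3a2 is the heavy chain that carries it, and other light chains, to the membrane. Slc38a2 and Slc38a1 take up small neutral amino acids and glutamine together with sodium, Slc1a5 exchanges glutamine and other neutral amino acids, and Slc7a1 brings in arginine and lysine.

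The libraries had the transcript profile of muscle. Of 8 muscle fiber markers 7 had a value (not Ttn), and their summed level ran from 56358 through a median of 60571 to 67950 in the 12 contralateral muscles and from 46208 through 57807 to 77870 in the 12 trained ones, with Acta1 as the most abundant gene. At 2 days this sum was 55861 ± 473 (SD, n = 3) in trained and 63498 ± 3669 in contralateral muscles. Over all days it was higher in the trained muscle of 4 of 12 animals. Levels are treated as TPM because every sample has the same total, and were rescaled per sample (factors 0.778 to 1.14). Division by transcript length was not tested, and an order of levels between genes holds only if it was made.

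Transporter levels spanned a wide range in the contralateral muscles. Mean TPM was 71.2 ± 7.12 (SD, n = 12) for Slc38a2 and 34.0 ± 6.16 for Slc3a2, then 0.944 ± 0.394 for Slc38a1, 0.628 ± 0.232 for Slc1a5, 0.129 ± 0.0744 for Slc7a1 and 0.0990 ± 0.0664 for Slc7a5. Slc38a1 and Slc1a5 overlapped in range, as did Slc7a1 and Slc7a5, and each of these pairs of neighbours did not differ beyond its spread. In the 12 trained muscles the order was Slc38a2 (115 ± 15.7), Slc3a2 (24.7 ± 5.27), Slc1a5 (1.52 ± 0.303), Slc38a1 (0.807 ± 0.356), Slc7a1 (0.687 ± 0.138) and Slc7a5 (0.665 ± 0.549), and the ranges of the last 4 overlapped.

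The low levels decided which genes could be tested. A gene entered the main limma test where its level was at least 1 in at least 3 samples, and 4 of the 6 transporters passed. Slc3a2 and Slc38a2 reached 1 in all 24 samples, Slc38a1 in 7, and Slc1a5 in 11 trained and 1 contralateral muscle, so Slc1a5 passed through the group in which it was high. Slc7a5 reached 1 in 2 samples and Slc7a1 in 0, and both are given from the same test without that filter, over 15273 genes. In whole muscle, fewer cells of a type and less RNA per cell cannot be told apart.

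**Figure D1:**
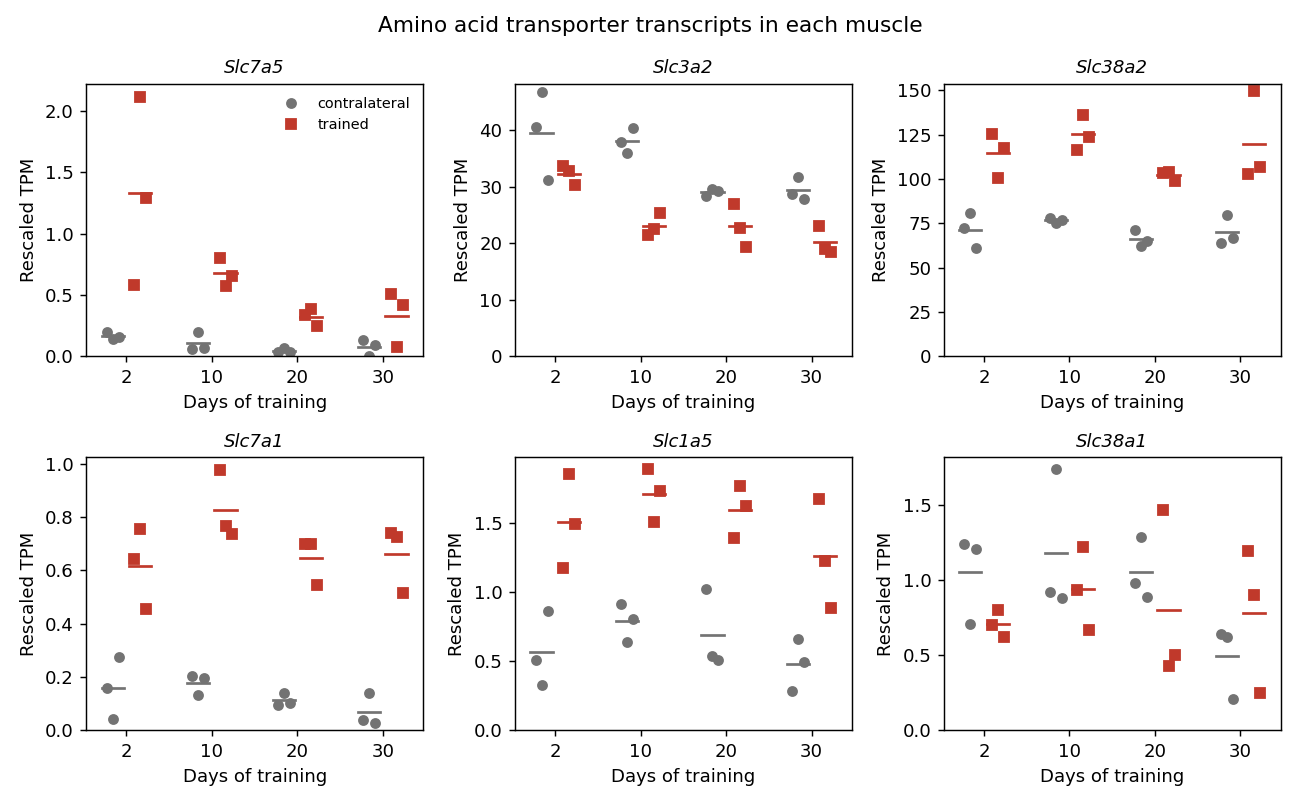
Level of each of the 6 transporters (y axis, rescaled TPM, starting at 0, a scale of its own in each panel) against days of training (x axis); grey circles are contralateral muscles, red squares trained muscles, and horizontal lines the means of 3. The trained muscles lie above the contralateral ones for Slc38a2 and Slc7a1 at every time point, and below them for Slc3a2 from 10 days on.

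The transporters are read against the share of all genes called, since that share was large. Called means an adjusted p under 0.05 in limma, with each trained group of 3 set against the same 12 contralateral muscles, which the 4 comparisons therefore share. At 2 days 15.4% of the 11196 genes tested were higher and 13.5% lower in trained muscle, and of the 4 transporters tested 2 were higher and 0 lower (also 0 lower at an unadjusted p under 0.05). After 10 days the shares were 15.6% and 13.3%, after 20 days 11.7% and 9.64%, and after 30 days 11.1% and 9.46%, and 2 of the 4 were higher and 1 lower each time. The 2 were Slc38a2 and Slc1a5, of which Slc1a5 entered through trained muscles, so the count of 2 in 4 is not independent of the filter. Without the filter 13.4%, 14.1%, 9.56% and 9.06% of genes were higher at the successive time points, and of Slc7a5 and Slc7a1 both were higher at 2 and 10 days and 1, Slc7a1, at 20 and 30 days.

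The number of genes called rested in part on single muscles and on the scaling. It was 3235 at 2 days and 1513 without trained replicate 2, 3240 at 10 days and 2147 without trained replicate 1, and 2304 at 30 days against 1472 without trained replicate 2, 1492 without trained replicate 3 and 1377 with the animal as a block. Higher genes were 53.4%, 53.9%, 54.9% and 54.0% of those called at the 4 time points, but 74.5%, 75.5%, 61.0% and 20.0% with the values as deposited and 44.4%, 40.0%, 41.1% and 45.3% among genes with a mean of at least 5. As deposited, the median log2 fold change of all genes at 30 days was -0.18 instead of -0.01.

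Slc7a5, the light chain that imports leucine, had the largest ratio to its contralateral level of the 6 at 2 days. Its levels in the trained muscles were 0.578, 2.11 and 1.29 TPM at 2 days and 0.800, 0.577 and 0.658 at 10 days. At 20 days they were 0.336, 0.384 and 0.246 and at 30 days 0.505, 0.0732 and 0.420, against 0 to 0.199 with a median of 0.0809 in the contralateral muscles. Every trained muscle up to 20 days lay above all 12 contralateral muscles, and at 30 days replicate 2 fell inside their range, although it was above its own contralateral muscle, which was listed at 0. The ratio of the group mean to the contralateral mean was 13.4, 6.85, 3.25 and 3.36 at the successive time points. The contralateral means of the separate days were 0.167, 0.108, 0.0449 and 0.0755, and against these the ratios were 7.92, 6.27, 7.17 and 4.41, so the lower ratio at 20 than at 2 days is mostly lost with the day's own contralateral muscles. That holds for ratios only. On the log2(value + 1) scale the values blocked by animal were 0.94 at 2 and 0.34 at 20 days. Their difference was -0.60 (adjusted p = 0.203 in limma), against -0.76 between the trained groups without the block. These ratios lean on single muscles, with 10.8 at 10 days without contralateral replicate 2 and 6.95 at 30 days without contralateral replicate 1. On the log2(value + 1) scale, which understates changes of low genes, the fold change was 1.03 ± 0.12 (SE) at 2 days (adjusted p = 2.3e-06) and 0.61 ± 0.12 at 10 days (adjusted p = 8.0e-04). At 20 and 30 days it was 0.27 and 0.27 (adjusted p = 0.154 and 0.157), and with a pseudocount of 0.1 it was 1.15 at 20 days (adjusted p = 0.0324). The 30-day value was 0.17 without trained replicate 1 of that day and 0.41 without replicate 2, and was not called in either case. The trained muscle was the higher in 12 of 12 animals.

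These levels were made up of small numbers of equal steps. The values of Slc7a5 in all 24 samples were whole multiples of 1 step, within 0.1 of a step, after allowing for the relative step of each sample (0.845 to 1.10), which was taken from 812 low transcripts. Counted in steps, the contralateral muscles held 0 to 6 with a median of 2.5 and the trained muscles 2 to 69 with a median of 15.5. Of 8014 low values of 743 further transcripts, 90.85% were whole by the same tolerance. Read depth per library was not used here, and whether 1 step is 1 read was not tested.

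Slc3a2, the heavy chain, was the only 1 of the 6 to be called lower in trained muscle. Its levels were 33.7, 32.8 and 30.4 TPM at 2 days and 21.5, 22.6 and 25.4 at 10 days. At 20 days they were 27.0, 22.7 and 19.4 and at 30 days 23.1, 19.0 and 18.4, against 27.9 to 46.8 with a median of 31.5 in the contralateral muscles. The trained muscles of 2 days lay inside that range, and all trained muscles from 10 days on lay below it. The log2 fold change was -0.06 ± 0.13 at 2 days (adjusted p = 0.791), -0.52 ± 0.13 at 10 days (adjusted p = 0.0049), -0.54 ± 0.13 at 20 days (adjusted p = 0.00516) and -0.71 ± 0.13 at 30 days (adjusted p = 5.1e-04). The trained muscle was the lower in 12 of 12 animals, but with the values as deposited it was the higher in 1 of them and the 2-day fold change was 0.056 (adjusted p = 0.815). With each trained muscle set against its own contralateral muscle (animal as a block), the value at 20 days was -0.34 (adjusted p = 0.0935), and without trained replicate 3 of that day it was -0.43 (adjusted p = 0.063).

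The contralateral level of Slc3a2 was itself uneven over the days, with means of 39.5 ± 7.88, 38.1 ± 2.23, 29.1 ± 0.624 and 29.4 ± 2.01 (SD, n = 3) at 2, 10, 20 and 30 days. The moderated F test of limma among the 4 contralateral groups called 0.0625% of genes, and 0.0131% without the filter, and 0 of the 6 transporters. At an unadjusted p under 0.05 it named 10.7% of all genes and 2 of the 6, Slc3a2 (adjusted p = 0.384) and Slc38a1 (adjusted p = 0.434). The pooled contralateral mean is thus higher than the day's own at 20 and 30 days for Slc3a2, and the blocked values for the 4 time points were -0.27, -0.69, -0.34 and -0.53.

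Slc38a2, the sodium-coupled carrier of small neutral amino acids and the most abundant of the 6, was higher at every time point. Its levels in the trained muscles were 125, 101 and 118 TPM at 2 days and 116, 136 and 123 at 10 days. At 20 days they were 103, 104 and 99.04 and at 30 days 103, 149 and 107, against 61.1 to 80.7 with a median of 71.9 in the contralateral muscles. The 2 sets did not overlap. The log2 fold change was 0.68 ± 0.11 at 2 days (adjusted p = 4.2e-05), 0.81 ± 0.11 at 10 days (adjusted p = 3.9e-06), 0.52 ± 0.11 at 20 days (adjusted p = 9.96e-04) and 0.73 ± 0.11 at 30 days (adjusted p = 3.8e-05). A separate deposited gene-level table was an alternative chosen after seeing the data. It was tested as deposited, without the rescaling per sample behind the values above. There the value of Slc38a2 at 30 days was 0.27 (adjusted p = 0.0931 in limma) and that of Slc3a2 at 10 days -0.24 (adjusted p = 0.256). The part of the scaling in these smaller values was not tested.

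Slc1a5, the glutamine exchanger, was also higher at every time point, at levels near 1. Its levels in the trained muscles were 1.17, 1.85 and 1.49 TPM at 2 days and 1.89, 1.51 and 1.73 at 10 days. At 20 days they were 1.39, 1.76 and 1.62 and at 30 days 1.67, 1.22 and 0.884, against 0.280 to 1.02 with a median of 0.586 in the contralateral muscles. The trained muscles lay above all contralateral muscles up to 20 days, and replicate 3 of 30 days lay inside their range. The log2 fold change was 0.63 ± 0.13, 0.75 ± 0.13, 0.68 ± 0.13 and 0.47 ± 0.13 at 2, 10, 20 and 30 days (adjusted p = 5.5e-04, 7.6e-05, 3.1e-04 and 0.00912), and without the filter, which it passed through trained muscles, the adjusted p was 6.0e-04, 9.0e-05, 3.7e-04 and 0.0101. The 30-day value was 0.35 with the values as deposited (adjusted p = 0.0644) and 0.34 without trained replicate 1 of that day (adjusted p = 0.109).

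Slc38a1 is a neighbour of Slc38a2 on chromosome 7, on the same strand, 48663 bases away in the Rnor_6.0 assembly (chr7:137975549-138039985 and chr7:138088649-138100842). Its levels ran from 0.250 to 1.47 TPM in trained and from 0.209 to 1.74 in contralateral muscles, and the 2 sets overlapped throughout. The log2 fold change was -0.16, 0.02, -0.13 and -0.14 at the 4 time points (adjusted p = 0.551, 0.962, 0.688 and 0.66), with an SE of 0.19 each, and the trained muscle was the higher in 6 of 12 animals. The 95% interval at 10 days ran from -0.37 to 0.40, on a scale that understates changes of a gene at this level. With the animal as a block the values at 10 and 30 days were -0.16 and 0.23, opposite in sign to those without it and also not called.

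Slc7a1, the carrier of arginine and lysine, was higher at every time point from a very low level. Its levels in the trained muscles were 0.641, 0.754 and 0.454 TPM at 2 days and 0.976, 0.767 and 0.737 at 10 days. At 20 days they were 0.698, 0.699 and 0.543 and at 30 days 0.741, 0.724 and 0.515, against 0.0268 to 0.275 with a median of 0.136 in the contralateral muscles. The 2 sets did not overlap, and the ratio of means was 4.77, 6.40, 5.01 and 5.11 at the 4 time points. Contralateral means by day were 0.158, 0.178, 0.113 and 0.0673, and against the day's own mean the ratios were 3.89, 4.64, 5.72 and 9.82. Without contralateral replicate 3 the ratio at 2 days was 6.15, and without contralateral replicate 2 that at 30 days was 20.8, so no course over the days is read from them. On the log2(value + 1) scale the change was 0.52, 0.69, 0.55 and 0.56, each with an SE of 0.07 (adjusted p = 1.5e-05, 2.6e-07, 1.2e-05 and 1.3e-05). Of its 3 transcripts, the most abundant in trained muscles held 85.2% of the mean level there and 40.1% in contralateral muscles, where another held 41.1% (9.93% in trained ones), a difference that was not tested. The contralateral levels behind these shares were 0.0518 ± 0.0747 and 0.0531 ± 0.0650 TPM (SD, n = 12). Each SD is larger than its mean, so no change between transcripts is read from the shares.

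**Figure D2:**
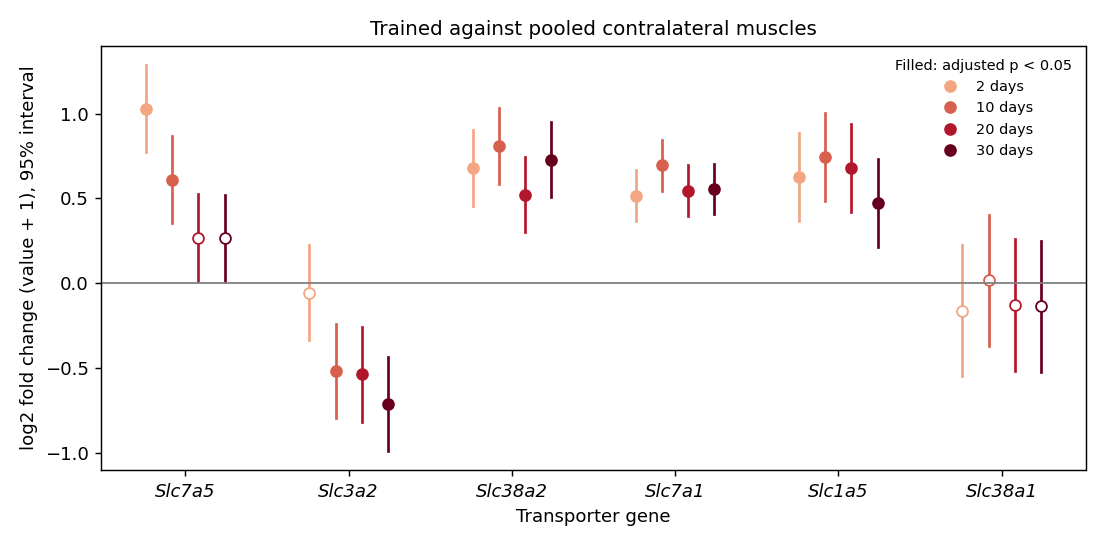
Log2 fold change of each transporter in trained against pooled contralateral muscles (y axis, log2 of value + 1, with 95% interval) at 2, 10, 20 and 30 days (colours, left to right within a gene on the x axis); filled points have an adjusted p under 0.05, and Slc7a5 and Slc7a1 come from the test without the filter. Slc38a2, Slc7a1 and Slc1a5 are above 0 at all 4 time points, Slc3a2 is below 0 from 10 days, Slc7a5 is highest at 2 days and the intervals of Slc38a1 span 0.

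Averaged over the 4 time points, the responses of 5 of the 6 genes passed the threshold. In this contrast 19.9% of all genes were higher and 20.3% lower, and 18.1% were higher without the filter. The mean log2 fold change was 0.69 ± 0.07 for Slc38a2 (adjusted p = 2.1e-08), 0.63 ± 0.08 for Slc1a5 (adjusted p = 7.5e-07, or 1.1e-06 without the filter), 0.58 ± 0.05 for Slc7a1 (adjusted p = 1.5e-09) and 0.54 ± 0.08 for Slc7a5 (adjusted p = 9.2e-06). It was -0.46 ± 0.09 for Slc3a2 (adjusted p = 1.3e-04) and -0.10 ± 0.12 for Slc38a1 (adjusted p = 0.523).

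Whether the trained level differed between days was tested in 6 direct contrasts of trained groups, which compare trained muscles alone but take their error variance from the same fit, contralateral muscles included. The shares of all genes called were 1.93% for 10 against 2 days, 8.05% for 20 against 2, 15.0% for 30 against 2, 0.170% for 20 against 10, 3.94% for 30 against 10 and 0.0357% for 30 against 20, and without the filter 1.52%, 6.32%, 11.7%, 0.111%, 3.14% and 0.0262%. Of 36 transporter contrasts 3 passed. Slc7a5 was lower at 20 than at 2 days by a log2 difference of -0.76 ± 0.16 (adjusted p = 0.00456) and at 30 than at 2 days by -0.76 ± 0.16 (adjusted p = 0.0026), and Slc3a2 was lower at 30 than at 2 days by -0.66 ± 0.17 (adjusted p = 0.0108). As differences between trained-minus-contralateral values with the animal as a block, these were -0.60 (adjusted p = 0.203), -0.64 (adjusted p = 0.16) and -0.26 (adjusted p = 0.486), and 0 of the 36 contrasts passed in limma, with 3 at an unadjusted p under 0.05 against 9 in the unblocked fit. Over the 6 contrasts together the blocked fit called 0.782% of all gene contrasts (0.452% without the filter), so 0 of 36 is near that share. At an unadjusted p under 0.05 the share was 12.1% with the block and 17.1% without it (11.1% and 15.4% with no filter). Without trained replicate 3 of 30 days the Slc3a2 difference was -0.60 (adjusted p = 0.0513). The other 33 contrasts, which include all those of Slc38a2, Slc7a1, Slc1a5 and Slc38a1, did not pass in either fit, which does not show that their levels were equal.

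Genes whose 12 trained-minus-contralateral log2 differences were nearest to those of a transporter were sought among genes with a mean of at least 5. For Slc38a2 these were Diaph1, Tmem43 and Parvb, at root mean square differences of 0.226, 0.229 and 0.232. For Slc3a2 they were Prkab1 (0.176), Polr3d (0.180) and Tpm1 (0.193). No such genes are given for Slc7a5, Slc7a1 and Slc1a5, whose differences on the log2(value + 1) scale are reduced by the pseudocount.

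Among 37 other amino acid transporters, 29 were in the table and 17 were tested. At 1 or more time points 3 of them were higher and 7 lower, where 24.7% of all genes were higher and 24.4% lower by the same count, and their median over the mean response was -0.07 on the log2 scale, against -0.02 for all genes. Slc38a3, a glutamine carrier, had a contralateral mean of 26.3 TPM and was lower by -1.35, -0.80, -0.67 and -0.72 at the 4 time points, but with the animal as a block the last 2 were -0.44 (adjusted p = 0.189) and -0.43 (adjusted p = 0.238). Slc43a1, another carrier of large neutral amino acids, was lower at all 4, by -0.84, -1.12, -0.91 and -1.25. Slc7a8, a light chain that also pairs with Slc3a2, was lower at all 4 by -0.52, -1.12, -0.76 and -0.82, and Slc3a1, the heavy chain of other exchangers, by -0.69 at 2 days. The light chain Slc7a6, with a contralateral mean of 5.03 TPM, was not called at any time point.

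The 3 that were higher were Slc43a2, a carrier related to Slc43a1, by 0.54, 0.34 and 0.53 at 2, 10 and 20 days, Slc15a4 by 0.42 at 2 days and Slc1a1 by 0.43 at 30 days. Slc1a1 had a contralateral mean of 0.698 TPM and trained means of 1.07, 1.21 and 1.32 at 10, 20 and 30 days. It may thus have passed the filter through trained muscles, and the count of 3 may not be independent of the filter. With the animal as a block, which called 19.6% of all genes higher at 1 or more time points, only 1 of them, Slc43a2, was called, since Slc15a4 was at 0.25 (adjusted p = 0.336) and Slc1a1 at 0.46 (adjusted p = 0.0815).

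Of 43 genes of amino acid sensing and mTORC1, 38 were tested, with a median of -0.12 over the mean response. At 1 or more time points 11 were lower (24.4% of all genes), or 18 with the values as deposited (27.2% of all genes), and 4 were higher (24.7% of all genes), namely Fnip2, Rragc, Rheb and Flcn, of which Flcn was also lower at 2 days and was not called at any time point with the animal as a block. Fnip2, a partner of folliculin, was higher at 10 days by 0.96. Sesn1, a leucine sensor, was lower at 2 days by -0.86, and Nprl3, part of the GATOR complex that restrains mTORC1, at 30 days by -0.53, or -0.44 both against the contralateral muscles of that day (adjusted p = 0.0896) and with the animal as a block (adjusted p = 0.0306). Rps6kb1, a kinase downstream of mTORC1, was lower by -0.31, -0.42, -0.67 and -0.44 at the 4 time points, and blocked by animal the first 2 were -0.36 (adjusted p = 0.0657) and -0.36 (adjusted p = 0.0669). Mtor itself was not called at any time point.

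Of 26 targets of Atf4 and genes of amino acid synthesis, 18 were tested and 6 were higher and 6 lower at 1 or more time points, against 24.7% and 24.4% of all genes, with a median of -0.01. Atf4 itself was counted in both directions. Atf3, a stress-induced transcription factor, had the largest change of the list, from a contralateral mean of 5.89 TPM to 285 at 2 days (log2 fold change 5.53, against 5.71 at 10 days) and 122 at 30 days (3.98). With the animal as a block its values were 5.22, 4.88, 4.75 and 5.04 at the 4 time points. Ddit3 was higher by 1.86 and Ppp1r15a by 1.66 at 2 days, while Chac1, which degrades glutathione, was lower by -2.23. Mthfd2 was higher at 2 and 10 days by 0.86 and 0.63, or 0.83 and 0.45 with the animal as a block. Its contralateral level was 0.213 ± 0.137 TPM (SD), so it passed the filter through trained muscles. The count of 6 higher is therefore not independent of the filter. Asns, Psat1, Phgdh and Trib3 were below the filter.

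Of 16 genes listed as possible regulators of these transporters, 14 were tested, with a median of 0.06. At 1 or more time points 7 were higher and 4 lower, against 24.7% and 24.4% of all genes. Any action of these genes on the transporters was not tested. Atf4 and Epas1 were counted in both directions. Myc, a transcription factor of growth, went from 1.40 TPM in the contralateral muscles to 17.1 at 2 days (log2 fold change 2.93) and 5.37 at 30 days (1.45). Blocked by animal, the values of Myc were 2.60, 2.80, 2.16 and 1.68 at the 4 time points. Hif1a, the oxygen-regulated factor, was higher at all 4, by 0.58, 0.91, 1.03 and 0.94. The 4 that were lower were Atf4, Epas1, Max and Mlxip, of which Max, at 30 days by -0.38, was at -0.39 blocked by animal (adjusted p = 0.0881). Epas1 was lower at 2 days by -0.56 and higher at 20 and 30 days by 0.51 and 0.56. Atf4 was lower at 10, 20 and 30 days by -0.32, -0.53 and -0.45 and higher at 2 days by 0.26, or 0.32 blocked by animal (adjusted p = 0.0524). Sgk1 and Mlxip at 2 days were at 0.62 and -0.79, and blocked at 0.48 (adjusted p = 0.0969) and -0.50 (adjusted p = 0.0802), and neither passed. Sgk1 was at 0.68 with a pseudocount of 0.1 (adjusted p = 0.054), and Mlxip at -0.69 with the values as deposited (adjusted p = 0.0578). At 20 days Mlxip was lower by -0.67 (adjusted p = 0.0397), or -0.72 blocked by animal (adjusted p = 0.0210).

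Of 8 enzymes of glutamine and glutamate, 7 were tested, with a median of -0.26. At 1 or more time points Got1 and Got2 were higher, 2 in all, and Glul, Gpt2, Gpt and Glud1 were lower, 4 in all, against 24.7% and 24.4% of all genes. Glul, which makes glutamine, had a contralateral mean of 299 TPM and was lower at 10, 20 and 30 days by -1.24, -1.69 and -1.58, and at 2 days was at -0.31 (adjusted p = 0.0732), or -0.47 blocked by animal (adjusted p = 0.0168). Gpt2 was lower at all 4, by -0.43, -1.42, -1.46 and -1.47, and Got1 was higher at 20 and 30 days by 0.62 and 0.87. Gpt was lower at 2 days by -0.77.

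Summed markers of several cell types other than muscle fibers were higher in the trained muscles, as were Slc7a5, Slc7a1, Slc1a5 and Slc38a2. All 8 macrophage and monocyte markers had a value, and their summed level was 4.95 to 14.9 TPM with a median of 10.7 in contralateral and 17.1 to 45.6 with a median of 29.6 in trained muscles, higher in the trained muscle of 12 of 12 animals, with C1qa the most abundant. The 6 fibroblast markers summed to 75.1 to 255 TPM with a median of 174 in contralateral and 303 to 996 with a median of 514 in trained muscles, with Col3a1 the most abundant, and the 3 markers of proliferating cells to 0.126 to 1.05 and 0.766 to 5.68, with Cdk1 the most abundant. None of the markers with a value, in the lists given here, was at 0 in every sample of a group. The mean proliferating-cell sum was 4.15, 4.83, 3.19 and 1.21 in trained and 0.226, 0.437, 0.540 and 0.753 in contralateral muscle at the successive time points, and the mean macrophage sum 29.2, 33.9, 29.8 and 30.8 against 6.28, 11.8, 11.2 and 10.5. Their part in the transporter values was not tested.

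For the other lists, summed medians in contralateral and trained muscles were 35.2 and 41.7 TPM for 5 of 6 endothelial markers (means of 34.4 and 28.9 at 2 days, 35.3 and 44.1 at 10, 35.2 and 47.7 at 20 and 37.5 and 44.8 at 30 days), 71.1 and 70.5 for 4 smooth muscle and pericyte markers, 24.8 and 18.6 for 3 satellite cell markers (nearly all Myod1, with means of 23.0 and 18.7), and 4.08 and 5.05 for 3 adipocyte markers. They were 536 and 631 for 4 of 5 erythroid markers, 0.488 and 0.539 for 3 of 4 neutrophil markers, and 1.66 and 3.48 for 3 of 6 lymphocyte markers. Myf5, the other satellite cell marker tested, was higher at 2 and 10 days by 0.54 and 0.40, or 0.36 (adjusted p = 0.0880) and 0.42 (adjusted p = 0.0533) with the animal as a block. The most abundant genes of these lists were Cdh5, Rgs5, Myod1, Adipoq, Hba-a1, S100a9 and Cd4.

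RefSeq promoters (GRCr8, 250 bases before to 50 after the start) had an entry for 5 of the 6 transporters, and those of 3 of the genes that rose are shown. They were searched on both strands for CACGTG (E-box, in 6.42% of 33465 promoters), TGATGNAA (core of the C/EBP-ATF response element, 3.98%), TGANTCA (AP-1, 7.33%) and TGACGTCA (CRE, 1.83%), none of which overlapped another in them. Capitals mark a match: the Slc7a5 promoter (chr19:66872363-66872662, minus strand) held CACGTG at bases 72 to 77, the Slc7a1 promoter (chr12:11664238-11664537, plus strand) TGATGAAA at bases 221 to 228, and the Slc38a2 promoter (chr7:129742570-129742869, minus strand) held no match.
Slc7a5: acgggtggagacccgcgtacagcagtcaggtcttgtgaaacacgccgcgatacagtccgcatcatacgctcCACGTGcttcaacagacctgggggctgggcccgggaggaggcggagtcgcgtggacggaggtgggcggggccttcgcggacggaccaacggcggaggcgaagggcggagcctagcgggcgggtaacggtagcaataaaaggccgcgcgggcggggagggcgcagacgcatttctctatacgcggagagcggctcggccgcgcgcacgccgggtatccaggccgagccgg
Slc7a1: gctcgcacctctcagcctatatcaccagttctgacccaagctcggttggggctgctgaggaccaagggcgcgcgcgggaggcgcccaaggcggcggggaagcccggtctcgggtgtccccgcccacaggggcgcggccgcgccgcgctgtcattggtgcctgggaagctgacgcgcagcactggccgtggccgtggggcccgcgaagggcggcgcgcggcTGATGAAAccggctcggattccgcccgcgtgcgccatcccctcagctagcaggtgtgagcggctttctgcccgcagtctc
Slc38a2: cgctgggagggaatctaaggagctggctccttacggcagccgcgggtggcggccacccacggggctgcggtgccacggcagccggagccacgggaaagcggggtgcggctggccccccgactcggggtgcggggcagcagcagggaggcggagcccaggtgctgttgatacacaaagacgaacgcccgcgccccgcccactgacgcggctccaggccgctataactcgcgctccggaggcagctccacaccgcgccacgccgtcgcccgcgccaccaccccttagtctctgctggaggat
In Slc38a1, which was not called, the promoter held TGATGCAA at bases 109 to 116 and TGAATCA at bases 26 to 32, and neither of 2 Slc3a2 promoters held a match. A match is a run of letters in this window and no test of binding.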

How the data were processed

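Poly(A)-enriched RNA of 24 muscles was sequenced in pairs of reads by the authors, who aligned reads with STAR to Rnor_6.0 and quantified Ensembl transcripts in Partek Flow. Their methods name the median of ratios of DESeq2, but the deposited transcript values sum to 634431 in every sample and were treated as TPM made by the authors; division by transcript length was not tested. A second table of 4635 genes, a signal deposited by the authors with its scaling not given in the sources used here, was used as an alternative. It was tested without the rescaling and the filter described below. A table of the authors' own fold changes and p-values was not used.

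TPM were divided by median-of-ratios factors (16230 transcripts above 0 in all samples), summed per gene symbol and filtered (at least 1 in at least 3 samples, 11196 genes). Log2(value + 1) was tested with limma 3.58.1 in R 4.3.3 for 12 pooled contralateral and 4 trained groups, with Benjamini-Hochberg adjustment over all genes tested in a comparison. Slc7a5 and Slc7a1 fell below the filter, and their values, alternatives included, come from the unfiltered fit of 15273 genes, which had been listed only as an alternative. The code was tested on simulated data. Both muscles of an animal carry its number, so the numbers pair the samples; deviations from group means correlated by 0.0277 to 0.343 (median 0.174), over 0.1 in 8 of 12 animals. No samples held identical values.

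The transporters and gene lists were chosen with earlier results of these data known. Besides the transporters, up to 4 genes per list were named, those past the threshold with the largest absolute log2 fold change at any time point, genes needed to state a count of 5 or fewer, and the 3 genes with the smallest root mean square difference from each called transporter, given for Slc38a2 and Slc3a2 alone because the pseudocount reduces the differences of the 3 low ones. Added after the values were seen were the shares of all genes over any time point, at an unadjusted p and with the block, the ratios to each day's own contralateral mean, with and without single muscles, and the transcript shares per side. The unfiltered fit, a listed alternative, is also given for Slc1a5. Slc7a6, Mtor, Mthfd2, Asns, Psat1, Phgdh and Trib3 were named after their values were seen. The step estimate was also added after seeing the values, and its method was revised after a first version found no transcripts and a second gave 1 sample an implausible step; the Slc7a5 steps were the same in the second version and the one used.

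Alternatives were the values as deposited, a pseudocount of 0.1, no filter, a mean of at least 5, an adjusted p under 0.01, the animal as a block, time-matched controls, single transcripts, an intensity trend and leaving out each muscle. The gene-level table was added after seeing the data, as were the alternatives of the test among contralateral groups. Of the contrasts between trained groups, those followed singly through the alternatives were the 3 that passed. The levels of 1 marker list and the names of some markers are not reported here.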

Additional observations from a re-analysis of the deposited data

Results flagged for a closer look

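Among the transporters, 3 differences between training durations passed a test of 1 trained group against another, with the error variance of all muscles, which is why they are listed here. Slc7a5 was lower in trained muscle at 20 than at 2 days by a log2 difference of -0.76 (adjusted p = 0.00456) and at 30 than at 2 days by -0.76 (adjusted p = 0.0026), while its trained level was above the contralateral one in 12 of 12 animals. Its contralateral mean was also lower at 20 days (0.0449 TPM) and 30 days (0.0755 TPM) than at 2 days (0.167 TPM). Slc3a2 was lower at 30 than at 2 days by -0.66 (adjusted p = 0.0108), and its contralateral mean was also lower at 30 days (29.4 TPM) than at 2 days (39.5 TPM). As differences between trained-minus-contralateral values with the animal as a block, none of the 3 passed, at -0.60, -0.64 and -0.26.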

How the results depend on the processing

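Some calls of the transporters depended on the processing, and the cause was not tested. With a pseudocount of 0.1 Slc7a5 at 20 days was at 1.15 (adjusted p = 0.0324). As deposited, Slc3a2 at 2 days was at 0.056 and Slc1a5 at 30 days at 0.35 (adjusted p = 0.0644). With the animal as a block and with time-matched controls, Slc3a2 at 20 days was at -0.34 (adjusted p = 0.0935 and 0.106), and Slc38a1, called nowhere, was at -0.16 at 10 days and 0.23 at 30 days; its main single transcript was at -0.18 at 10 days. The block also took the 3 contrasts between trained groups to -0.60, -0.64 and -0.26, none of them called (0 of 36), and changed no other call of the transporters. The gene-level table, which was not rescaled, holds Slc3a2 and Slc38a2. In it Slc3a2 was at 0.11 at 2 days and -0.24 at 10 days, and Slc38a2 at 0.27 at 30 days. An intensity trend changed no call.

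Leaving out 1 muscle gave -0.66 to -0.43 for Slc3a2 at 20 days, 0.34 to 0.59 for Slc1a5 at 30 days, -0.75 to -0.60 for Slc3a2 at 30 against 2 days, and for Slc38a1 -0.087 to 0.12 at 10 days, -0.38 to 0.015 at 20 days and -0.31 to 0.10 at 30 days. Slc38a2, Slc7a1 and Slc7a5 kept each call against the contralateral muscles. Genes called ran from 1513 to 3505 at 2 days, 2147 to 3296 at 10 days and 1472 to 2440 at 30 days.

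Counts of genes called also moved. At 2, 10, 20 and 30 days an adjusted p under 0.01 left 1958, 2050, 1420 and 1296. Time-matched controls gave 2007, 1589 and 1121 from 10 days on, a mean of at least 5 gave 2036 and 1518 at 10 and 20 days, the animal block 1377 at 30 days, and the gene-level table, with fewer genes, 1344, 1056 and 729 up to 20 days. Of the other transporters, with 3 higher and 7 lower in the main test, 5 were higher without a filter and 1 with a mean of at least 5, with the block and with time-matched controls, and 2 were lower with a mean of at least 5. Of the sensing genes 18 were lower as deposited, and of the regulators 2 with time-matched controls. At 1 or more time points 19.6% of all genes were higher with the block and 27.2% lower as deposited. For the other settings no such share is given, so these counts are not read as results about the lists. Low transcript levels limit what can be seen of Slc7a5, Slc7a1, Slc1a5 and Slc38a1, and 3 animals per time point limit all comparisons between days.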
